A study of Mus musculus with 24 samples.

Results

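Transcript levels in the cerebral cortex were compared between 4 knockout (KO) mice, which lack glutamine synthetase in the liver, and 4 wild-type (WT) mice. The comparison used the 8 cortex arrays of a series of 24, in which hippocampus and cerebellum have 8 arrays each, and the arrays were chosen by region, genotype and animal number in their titles. All 19572 annotated rows of the deposited table, which carry 19505 gene symbols, were tested. The labels name no treatment for either genotype, and the sources used here do not give strain, age, sex, blood ammonia or the means by which the gene was deleted in the liver. The row of the deleted gene was not analysed here, and a deletion in the liver cannot be checked in brain RNA. Each array was 1 animal and region, and their number limits the precision of every value below.

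Glutamine synthetase joins ammonia to glutamate to form glutamine. Liver cells around the central vein use it to take up the ammonia that has escaped the urea cycle, so its loss there raises ammonia in the blood. In the brain, astrocytes are the main cells that trap ammonia in this way, and they pass the glutamine to neurons, which turn it back into the transmitters glutamate and GABA. Raised ammonia is known for astrocyte swelling, oxidative stress and disturbed handling of potassium and glutamate, and the series asks which brain transcripts accompany it.

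The cortex label was borne out by neocortical genes, with 29 of 31 listed genes measured. Their mean log2 value was 11.85 to 12.18 in the 8 cortex arrays, against 10.25 to 11.69 in the 16 arrays of hippocampus and cerebellum. Several cortex arrays also carried genes of neighbouring tissues. The mean of 25 olfactory bulb genes was 11.28 in KO 1 and 10.76 in KO 4, and 8.62 to 9.04 in the 4 WT arrays, KO 2 and KO 3. Among WT arrays, WT 3 held pituitary hormone genes (growth hormone Gh at 17.46 and prolactin Prl at 13.20), WT 1 held the choroid plexus gene Ttr at 15.28, and WT 4 held genes high in thalamus and brainstem (Tcf7l2 at 15.09 and the glycine receptor gene Glra1 at 10.93). Cortex differences are therefore given over all 8 arrays and, for most genes and for every list, also without KO 1 and KO 4. In whole tissue, fewer cells of a type and less RNA per cell cannot be told apart.

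**Figure D1:**
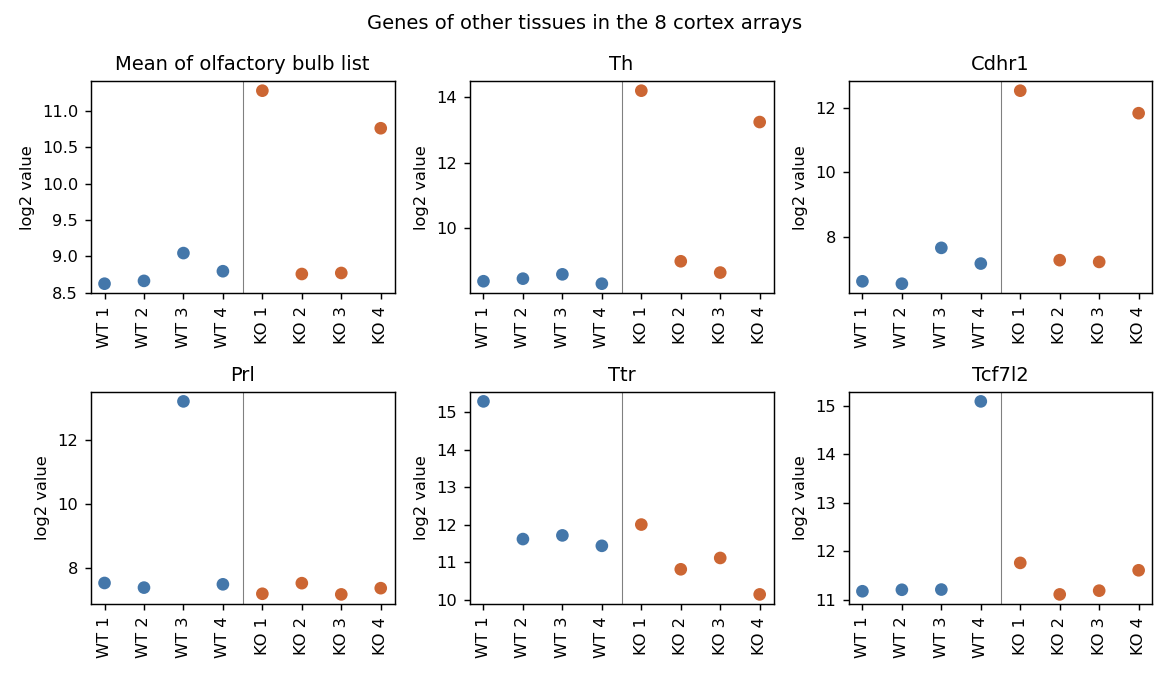
Deposited log2 values (vertical axes) in each of the 8 cortex arrays (horizontal axes; blue WT, orange KO) for the mean of the olfactory bulb list and for 5 genes of other tissues. KO 1 and KO 4 stand above the other 6 arrays for the bulb list, Th and Cdhr1, while Prl is highest in WT 3, Ttr in WT 1 and Tcf7l2 in WT 4.

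Over all 8 cortex arrays no gene passed the test. limma called 0 of 19572 genes (0% called) at an adjusted p under 0.05, and the smallest adjusted p was 0.366. At an unadjusted p under 0.05 there were 1459 genes (7.45% of those tested), 806 higher (4.12%) and 653 lower (3.34%) in KO. Without KO 1 and KO 4 the call count was again 0, with a smallest adjusted p of 0.999 and 693 genes (3.54%) at an unadjusted p under 0.05. The median difference over all genes was -0.01 in both fits, and 47.1% of genes were higher in KO over all arrays. Without KO 1 and KO 4, 9242 of 19572 genes were higher and 10330 lower. Every gene named below is thus described by its values, and none of the differences over all 8 arrays passed the adjusted threshold.

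Lcn2 had the largest difference of any tested gene. It encodes lipocalin-2, a secreted protein that binds bacterial iron carriers and is known as an acute-phase product and a marker of reactive astrocytes. Its log2 values were 8.67, 6.85, 7.28 and 7.14 in cortex WT 1 to WT 4, and 11.81, 12.29, 12.25 and 7.44 in KO 1 to KO 4. KO 1, KO 2 and KO 3 lay above every WT array, and KO 4 lay among the WT arrays. The difference, KO minus WT, was 3.47 (SE 1.18, n = 4 arrays per group), which is 11-fold on the scale of the deposited values, with an adjusted p of 0.553. Without KO 1 and KO 4 it was 4.79 (SE 1.31, n = 2 KO and 4 WT arrays, adjusted p = 0.999). That omission removes the KO array with Lcn2 at the WT level as well as a KO array that was high.

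The KO arrays of the same 3 animal numbers were high in the other regions. That a number marks the same animal in each region was assumed. In the hippocampus, Lcn2 was at 12.22, 12.07, 13.40 and 7.13 in KO 1 to KO 4 and at 9.33, 6.96, 7.20 and 7.64 in WT 1 to WT 4. The cerebellum gave 11.37, 12.53, 13.56 and 7.39 in the KO arrays and 8.75, 6.67, 6.81 and 7.35 in the WT arrays. KO 4 stayed at the WT level in all 3 regions, and WT 1 was the highest WT array in each. The cortex difference exceeded that of the hippocampus by 0.04 (limma's interaction term, adjusted p = 0.9999) and fell short of that of the cerebellum (a difference of -0.35, adjusted p = 0.984). The bulb list mean was high in KO 1 and KO 4 in the cortex only, among the 24 arrays. The animal numbers high for Lcn2 and those high for bulb genes thus shared KO 1 and differed otherwise.

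**Figure D2:**
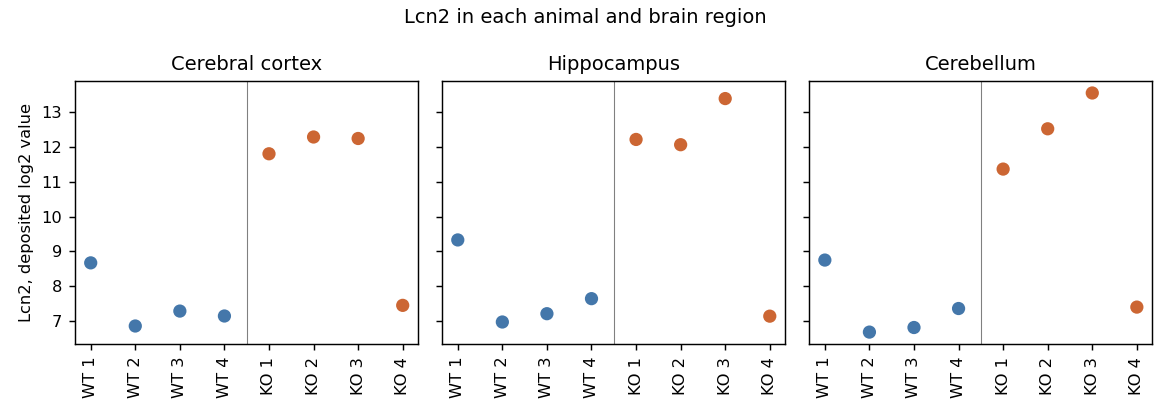
Deposited log2 value of Lcn2 (vertical axis) in each array (horizontal axis; blue WT, orange KO) of cortex, hippocampus and cerebellum. KO 1, KO 2 and KO 3 lie between 11.37 and 13.56 in the 3 regions, and KO 4 lies between 7.13 and 7.44, among the WT arrays.

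The promoter of Lcn2 is shown because this gene differed most, with that of Egln3 and the first of the promoters of Ldha, which are hypoxia genes named below. The stretches are 300 bases around each transcript start from RefSeq, build GRCm38.p6: chr2:32387690-32387989 on the minus strand, chr12:54203825-54204124 on the minus strand and chr7:46845554-46845853 on the plus strand. Capitals mark TTGCNNAA, a form of the site of the acute-phase C/EBP factors, in Lcn2. In Egln3 and Ldha they mark ACGTG, a form of the core of the hypoxia response element. Matches on either strand are marked, and other forms of that core were not searched.
Lcn2: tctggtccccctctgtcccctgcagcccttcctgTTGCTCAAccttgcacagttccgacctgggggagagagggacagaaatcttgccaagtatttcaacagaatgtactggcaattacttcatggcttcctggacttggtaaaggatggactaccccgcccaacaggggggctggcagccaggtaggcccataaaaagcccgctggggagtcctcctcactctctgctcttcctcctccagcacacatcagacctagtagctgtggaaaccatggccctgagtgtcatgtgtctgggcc
Egln3: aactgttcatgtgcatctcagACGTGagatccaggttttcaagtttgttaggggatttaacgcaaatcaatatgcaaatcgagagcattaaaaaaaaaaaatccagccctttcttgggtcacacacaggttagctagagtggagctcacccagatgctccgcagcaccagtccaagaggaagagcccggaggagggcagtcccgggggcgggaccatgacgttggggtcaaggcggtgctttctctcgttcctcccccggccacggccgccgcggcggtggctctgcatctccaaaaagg
Ldha: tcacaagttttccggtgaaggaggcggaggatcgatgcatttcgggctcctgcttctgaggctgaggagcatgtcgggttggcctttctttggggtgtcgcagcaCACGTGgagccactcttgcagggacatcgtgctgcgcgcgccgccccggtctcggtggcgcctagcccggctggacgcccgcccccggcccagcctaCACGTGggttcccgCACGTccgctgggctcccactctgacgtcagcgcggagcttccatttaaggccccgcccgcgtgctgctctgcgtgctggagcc
TTGCNNAA occurred once in the Lcn2 stretch, and 10.8% of 32851 mouse promoters of the same length hold it. No match was found there for TTCNNNGAA, the STAT form, which 8.3% of promoters hold, or for the NF-kB consensus, which 8.46% hold. ACGTG occurred in 1 run in Egln3 and in 3 runs in the first Ldha promoter, where palindromic runs overlap, and in 0 in the other Ldha promoter; 19.6% of promoters hold it. These are matches of letters, chosen to be searched after the values were seen.

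The other large differences lay mostly in KO 1 and KO 4, the arrays with olfactory bulb genes. At over 2-fold there were 57 higher genes (0.291%) and 3 lower genes (0.0153%), and in 56 of the 57 both KO 1 and KO 4 lay above the other 6 arrays. The bulb list, with 25 of the 19572 genes tested, held 13 of the 57. The median difference of the 57 was 1.33 over all arrays and 0.04 without KO 1 and KO 4, and Lcn2 alone of them was then still over 2-fold. Stoml3, a stomatin-like protein of sensory neurons, was at 7.31, 7.08, 7.42 and 7.33 in WT and at 13.00, 7.75, 8.17 and 12.14 in KO. Its difference of 2.98 (SE 0.75) became 0.68 without KO 1 and KO 4. Th encodes tyrosine hydroxylase, the dopamine-producing enzyme of bulb interneurons. It was at 8.40, 8.48, 8.61 and 8.32 in WT and at 14.18, 9.0, 8.66 and 13.23 in KO, so that KO 2 and KO 3 lay just above the WT arrays. The difference went from 2.82 to 0.38. Cdhr1, a photoreceptor and mitral cell cadherin, went from 2.70 to 0.25, Pbx3 from 2.38 to 0.04 and Eomes, a transcription factor of mitral cells, from 2.36 to 0.27. Of the 25 measured bulb genes, 22 were higher over all arrays and 21 reached an unadjusted p under 0.05, with a median of 1.01. Without KO 1 and KO 4, 11 of the 25 were higher, none reached that p, and the median was -0.03. KO 1 and KO 4 were set apart for their bulb genes. The bulb list counts with and without them follow from that choice and are no separate result.

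**Figure D3:**
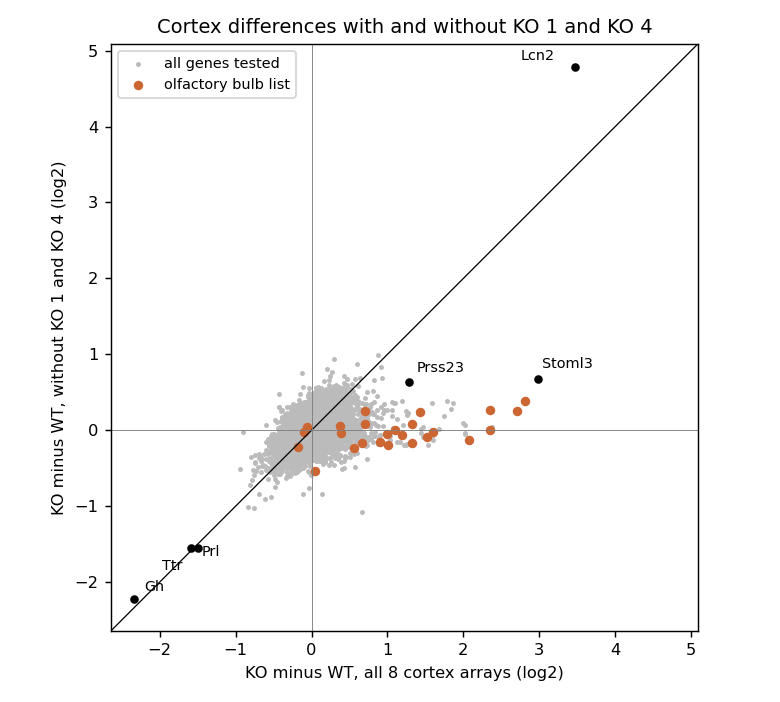
Difference of KO and WT (log2) for each tested gene with all 8 cortex arrays (horizontal axis) and without KO 1 and KO 4 (vertical axis); orange points are the olfactory bulb list, black points are named genes, and the diagonal marks equal values. Of 25 bulb genes, 22 lie to the right of 0, and their list has a median of 1.01 on the horizontal and -0.03 on the vertical axis. Lcn2 lies at 3.47 and 4.79.

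Genes passed the threshold when KO 2 or KO 3, the KO arrays low in bulb genes, was left out. limma called 55 genes without KO 2 (0.281% called; 54 higher) and 34 without KO 3 (0.174% called; 32 higher). The 2 sets shared 22 genes, and in 63 of the 67 genes in either set KO 1 and KO 4 lay above the other 6 arrays. Leaving out KO 2 or KO 3 gives KO 1 and KO 4 more weight in the KO mean. That favours calls of genes high in both, and the share of all genes with this order was not counted. The bulb list, with 25 of the 19572 genes tested, held 8 of the 67. An example is Cpa6, a carboxypeptidase gene, which was at 6.44, 6.47, 6.61 and 6.78 in WT and at 10.88, 6.86, 6.22 and 10.41 in KO. S100a5, a calcium-binding protein of olfactory neurons, went from 2.00 to 0.09 when KO 1 and KO 4 were left out, and Syt6 from 1.78 to 0.39.

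Among the higher genes of smallest p, Tax1bp1 changed little without KO 1 and KO 4, and Tars, Zfp182 and Lyar kept most of their difference. Tax1bp1, an autophagy receptor, was at 12.76, 12.33, 12.44 and 12.52 in WT and at 12.94, 13.00, 12.90 and 13.13 in KO, with no overlap of the groups. Its difference was 0.48 (SE 0.11, adjusted p = 0.366) and 0.44 without KO 1 and KO 4. Tars, which encodes the threonyl-tRNA synthetase, was at 10.24, 10.10, 10.10 and 10.07 in WT and at 10.79, 10.40, 10.61 and 10.61 in KO. All KO arrays were above all WT arrays, and the difference of 0.48 (SE 0.11) became 0.38. The zinc finger gene Zfp182 likewise went from 0.48 to 0.38, and the nucleolar protein gene Lyar from 0.43 to 0.31, each without overlap.

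Other genes near the top moved more with the bulb-bearing arrays. Prss23, a serine protease gene with the smallest p of all (1.88e-05), was at 9.12, 9.17, 8.63 and 9.01 in WT and at 10.73, 9.67, 9.55 and 11.13 in KO. All KO arrays were above all WT arrays, but KO 1 and KO 4 were more than 1 above KO 2 and KO 3, and the difference went from 1.29 (SE 0.24) to 0.63 (SE 0.19). Postn, the gene of the matrix protein periostin, went from 0.73 to 0.50. Prkca, a protein kinase C, went from 0.95 to 0.34, Plekha2 from 1.19 to 0.39 and Dgat2l6 from 0.61 to 0.27. Postn and Dgat2l6 were dim: among the cortex arrays only KO 1 held them above 7.07, the lower quartile of the gene means. Egln3, a prolyl hydroxylase that marks hypoxia-inducible factors for breakdown, was at 9.15, 9.0, 9.47 and 8.79 in WT and at 11.21, 9.56, 9.37 and 10.68 in KO. KO 3 lay below WT 3, and the difference of 1.10 became 0.36. With the bulb list mean of each array as a covariate the difference was 0.72 for Prss23, 0.48 for Postn, 0.35 for Egln3 and 0.39 for Prkca. That mean was high in KO 1 and KO 4 alone, so this fit is close to leaving them out and is no separate check.

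The lower genes of smallest p kept more of their difference. Rpe65, a retinoid isomerase gene, was at 7.35, 6.81, 7.33 and 6.99 in WT and at 6.53, 6.52, 6.75 and 6.71 in KO. All KO arrays were lower, and the difference of -0.49 (SE 0.12, adjusted p = 0.366) was -0.48 without KO 1 and KO 4. Sh3bp1 was at 10.38, 10.14, 10.25 and 10.18 in WT and at 9.77, 9.81, 9.67 and 9.77 in KO. The 4 KO values lay between 9.67 and 9.81, below every WT value, and the difference was -0.48 (SE 0.12) and -0.50 without KO 1 and KO 4. Dync1h1, the heavy chain of the dynein motor, differed by -0.39 and -0.36, and Slc25a28, which carries iron into mitochondria, by -0.43 and -0.39. In both of these genes all KO arrays were below all WT arrays. The potassium channel gene Kcnc4 was at 11.43, 11.55, 11.54 and 11.35 in WT and at 10.59, 11.0, 11.19 and 10.50 in KO. Its difference went from -0.65 to -0.37, with the lowest values in KO 1 and KO 4. The formin gene Fmnl1 went from -0.65 to -0.47, the testis kinase gene Tssk5 from -0.53 to -0.43, the ubiquitin ligase gene Hecw1 from -0.54 to -0.24, Kndc1 from -0.62 to -0.31 and Gli3, a hedgehog pathway factor, from -0.76 to -0.59. Tssk5 was dim as well, below 7.07 in every cortex array.

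**Figure D4:**
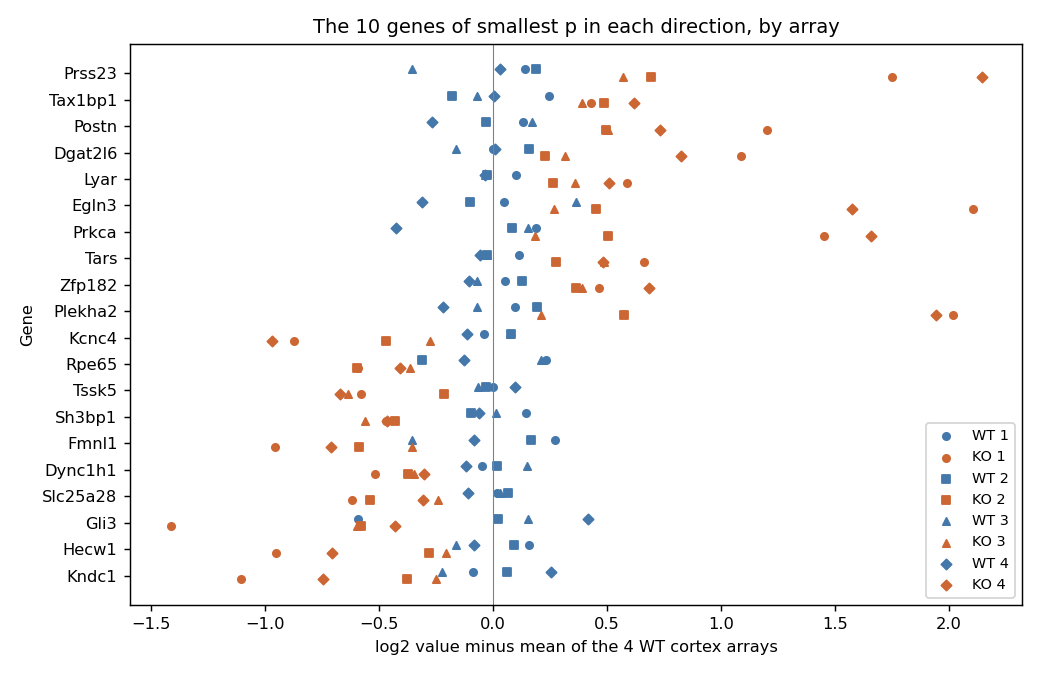
Log2 value minus the mean of the 4 WT cortex arrays (horizontal axis) for the 10 genes of smallest p in each direction (vertical axis); each point is an array, blue for WT and orange for KO, with a marker shape per animal number. KO 1 and KO 4 lie apart from KO 2 and KO 3 in Prss23, Egln3, Prkca and Plekha2, and the 4 KO arrays lie close together in Tax1bp1, Sh3bp1 and Dync1h1.

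Over all genes, the 4 KO arrays lay wholly above the WT arrays in 335 genes (1.71%) and wholly below in 385 (1.97%). Of these 720 (3.68%), 460 lost no more than 20% of their difference without KO 1 and KO 4, 211 higher and 249 lower ones. Genes chosen for separation over 8 arrays also tend to differ in 6 of them, so that count describes the arrays and is no repeat of the result.

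The largest lower differences came from single WT arrays. Gh differed by -2.34 (SE 1.36), with WT 3 at 17.46, the other WT arrays at 10.25, 8.26 and 7.78, and the KO arrays at 8.60, 8.68, 8.77 and 8.36. Without WT 3 the difference was -0.17, and without KO 1 and KO 4 it was -2.22. Prl went from -1.59 to -0.15 without WT 3, and Ttr, the thyroxine carrier made by the choroid plexus, from -1.50 to -0.57 without WT 1. Glra1 went from -0.84 to 0.11 without WT 4. These 3 genes differed by -1.55, -1.55 and -1.01 without KO 1 and KO 4. Tenm2, a synaptic adhesion gene, was at 12.83, 12.86, 12.25 and 13.15 in WT and at 11.99, 12.05, 12.48 and 10.78 in KO. The groups overlapped, and its difference of -0.94 (SE 0.28) became -0.51 without KO 1 and KO 4. Lypd1, a modulator of nicotinic receptors, went from -0.90 to -0.02.

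With KO 1 and KO 4 left out, 2 KO and 4 WT cortex arrays remained, and other genes came to the front. Ldha, the lactate dehydrogenase subunit that favours lactate production, was at 14.17, 14.06, 14.12 and 13.83 in WT and at 14.66 and 14.63 in KO 2 and KO 3, against 13.74 and 14.05 in KO 1 and KO 4. Its difference was 0.60 (SE 0.16, adjusted p = 0.999), and 0.22 with all arrays. Crbn, the substrate receptor of a ubiquitin ligase, differed by 0.41 and by 0.22 with all arrays, Tfg by 0.67 and 0.47, the tRNA-modifying Thg1l by 0.57 and 0.44, and the sialyltransferase gene St8sia3 by 0.53 and 0.15. Among lower genes, the cadherin gene Fat4 was at 8.60, 8.62, 9.24 and 9.17 in WT and at 7.83 and 8.22 in KO 2 and KO 3. KO 1 at 8.63 and KO 4 at 8.82 lay within the WT range, and its difference was -0.88 (SE 0.22) without them and -0.53 with them. Adcy8, a calcium-activated adenylyl cyclase, differed by -0.83 and by -0.11 with all arrays, Cep135 by -0.56 and -0.22, Arhgef40 by -0.60 and -0.33, Parp8 by -0.58 and -0.27 and Col11a1 by -0.47 and -0.29. When this fit used the cortex arrays alone, limma called 1 gene, Lcn2, at the same difference (SE 0.37, adjusted p = 0.000425). That call rests on KO 2 and KO 3, at 12.29 and 12.25, with KO 4 at 7.44 left out. With all 8 cortex arrays alone, limma called 0 genes, and the smallest adjusted p was 0.779. The fit over the 3 regions, whose spread takes in the low KO 4 arrays of hippocampus and cerebellum, gave an SE of 1.31.

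Enzymes that make and use glutamine, glutamate and ammonia had 26 of 34 listed members measured, and 18 were higher in KO. Of them 4 reached an unadjusted p under 0.05, all higher, and 0 passed the adjusted threshold. Over all genes, 4.12% were higher at that unadjusted p. The median was 0.10, and 0.02 without KO 1 and KO 4, where 14 were higher. Gfpt2, which uses glutamine to start hexosamine synthesis, was at 8.8, 9.12, 8.98 and 9.05 in WT and at 10.16, 8.91, 9.35 and 10.06 in KO. KO 2 lay among the WT arrays, and the difference of 0.63 (SE 0.21) became 0.14. The GABA-producing decarboxylases Gad1 and Gad2 went from 0.90 to -0.06 and from 0.66 to 0.06, and both were highest in KO 1 and KO 4. Arg2, the mitochondrial arginase, was at 6.41, 6.25, 6.68 and 6.53 in WT and at 7.24, 6.81, 6.81 and 6.82 in KO. All 4 KO arrays were above the WT arrays, and the difference of 0.45 (SE 0.18, adjusted p = 0.589) became 0.34. Arg2 was dim: among the cortex arrays only KO 1 held it above 7.07, the lower quartile of the gene means. Prodh, which starts proline breakdown, was at 10.21, 10.20, 10.08 and 10.08 in WT and at 9.89 to 10.01 in KO. Its difference was -0.18 and -0.22, without overlap in either case. Gfpt1 (0.21 and 0.09), Gmps (0.20 and 0.10) and the alanine transaminase gene Gpt2 (0.21 and 0.06) shrank with the omission.

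Transporters of glutamate, glutamine and GABA had 12 of 22 measured members higher, with 1 at an unadjusted p under 0.05 and a median of 0.03. The count was 10, with a median of -0.03, without KO 1 and KO 4. Slc1a5, a neutral amino acid exchanger that carries glutamine, was at 7.10, 7.37, 7.03 and 7.12 in WT and at 8.33, 7.53, 7.35 and 7.69 in KO. KO 3 lay just below WT 2, and the difference of 0.57 (SE 0.16, adjusted p = 0.431) became 0.28. Slc38a3, which releases glutamine from astrocytes, went from 0.48 to 0.04, the neuronal glutamine carrier Slc38a1 from 0.29 to 0.05, and the vesicular GABA carrier Slc32a1 from 0.36 to -0.14. The astrocyte glutamate carriers Slc1a2 and Slc1a3 differed by -0.26 and 0.20, and by -0.09 and 0.06 without KO 1 and KO 4. The vesicular carrier Slc17a6 differed by -0.73 and -0.53, with WT 4 at 12.52 and the other arrays at 9.58 to 10.78.

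Genes of ammonia channels, water and potassium had 10 of 19 measured members higher and a median of 0.03, with 6 higher and a median of -0.11 without KO 1 and KO 4. Slc12a5, the neuronal potassium-chloride exporter on which GABA inhibition depends, was at 13.62, 13.67, 13.42 and 13.44 in WT and at 13.08, 13.24, 13.32 and 13.42 in KO. The groups met at KO 4 and WT 3, and the difference was -0.27 (SE 0.11, adjusted p = 0.602) and -0.25 without KO 1 and KO 4. The sodium pump subunit Atp1b2 differed by -0.25 and -0.22, the carbonic anhydrase Car4 by -0.34 and -0.31, and the ammonia channel genes Rhag and Rhcg by 0.23 and 0.25 over all arrays and by 0.12 and -0.15 without KO 1 and KO 4. Both ammonia channel genes were dim. Rhag lay below 7.07, the lower quartile of the gene means, in every cortex array, and Rhcg in all but KO 1. The water channel Aqp4 differed by -0.08 and -0.31. Astrocyte markers had 6 of 19 members higher, with a median of -0.07, and 5 higher with a median of -0.18 without KO 1 and KO 4, and Gfap differed by -0.08 and -0.24. The mean of the astrocyte list was 13.00 in WT 4 and 12.56 to 12.79 in the other cortex arrays, and its part in these medians was not tested.

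Glutamate receptor genes had 11 of 19 members higher (median 0.02), and 6 of 19 (median -0.05) without KO 1 and KO 4. GABA receptor genes had 8 of 11 higher in both fits (medians 0.11 and 0.12). Grm7 differed by -0.39 and -0.24, Gria1 by 0.36 and 0.16, and Grm2 by 0.52 and -0.01. Gabrb1 differed by -0.32 and -0.16 and Gabbr2 by -0.34 and -0.07. Interneuron markers had 15 of 22 higher, with a median of 0.33, which became -0.04 with 9 higher without KO 1 and KO 4. Over all arrays 8 of the 22 were higher at an unadjusted p under 0.05, against 4.12% of all genes. The transcription factor genes Dlx2, Dlx5 and Dlx6, which bulb interneurons also express, went from 1.60 to -0.03, from 1.10 to 0.01 and from 0.70 to 0.25. Neocortical genes had 11 of 29 higher and a median of -0.13, which became 0.04 with 16 higher. At an unadjusted p under 0.05 over all arrays, 2 were higher and 1 was lower. The higher ones were Syt6 (1.78, and 0.39 without KO 1 and KO 4) and Bcl11b (0.54 and 0.19), and the lower one was Emx1. Emx1, a factor of cortical projection neurons, was at 9.69, 9.27, 9.79 and 9.35 in WT and at 9.0, 9.13, 9.18 and 9.26 in KO. The groups did not overlap, and its difference of -0.38 (SE 0.13, adjusted p = 0.553) was -0.36 without KO 1 and KO 4.

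Among genes of energy metabolism, TCA cycle and pyruvate enzymes had 18 of 19 members higher, against 47.1% of all genes. Their median was only 0.06, 2 reached an unadjusted p under 0.05 and 0 passed. Without KO 1 and KO 4, 13 of the 19 were higher, with a median of 0.05. Mdh2, the mitochondrial malate dehydrogenase, was at 13.90, 13.77, 13.89 and 13.98 in WT and at 14.18, 14.11, 14.12 and 14.15 in KO. All KO arrays were above all WT arrays by a small margin, and the difference was 0.26 (SE 0.12, adjusted p = 0.648) and 0.23. Pdhb, of the pyruvate dehydrogenase complex, differed by 0.25 and 0.22, also without overlap. Respiratory chain genes had 22 of 31 higher (median 0.05), and 19 (median 0.04) without KO 1 and KO 4. Uqcrfs1, the iron-sulphur subunit of complex III, was at 11.22, 11.36, 11.23 and 11.42 in WT and at 11.78, 11.65, 11.59 and 11.43 in KO. KO 4 nearly met WT 4, and the difference was 0.31 in both fits. Hypoxia and glycolysis genes had 18 of 29 higher with a median of 0.03, and 18 of 29 with a median of 0.07 without KO 1 and KO 4.

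Stress genes showed small differences. Chaperones of the endoplasmic reticulum had 15 of 17 members higher in both fits, with medians of 0.12 and 0.12 and 0 at an unadjusted p under 0.05 over all arrays. Their list mean was 12.83, 12.68, 12.37 and 12.48 in WT and 12.54, 12.69, 12.72 and 12.88 in KO, so the groups overlapped widely. Calr differed by 0.22 and 0.12, Pdia3 by 0.23 and 0.14, Dnajb9 by 0.23 and 0.24 and the stress sensor Atf6 by 0.22 and 0.42. Aminoacyl-tRNA synthetases had 10 of 16 higher (median 0.06), and 11 (median 0.04) without KO 1 and KO 4, with Eprs at 0.30 and 0.16 after Tars. Heat shock genes had 8 of 13 higher (median 0.02), and 5 (median -0.02) without KO 1 and KO 4, and Hsp90aa1 differed by 0.28 and 0.42. Integrated stress response genes had 7 of 20 higher in both fits (medians -0.03 and -0.03), with the asparagine synthetase gene Asns at 0.16 and 0.37. Antioxidant genes controlled by Nrf2 had 12 of 19 higher (median 0.03), and 10 (median 0.03) without KO 1 and KO 4, and Hmox1 differed by 0.10 and 0.12. In the p53 list 9 of 19 were higher (median -0.03), and 11 (median 0.07) without KO 1 and KO 4. Its member Cdkn1a, a brake on the cell cycle, was at 11.85, 11.73, 11.01 and 11.98 in WT and at 13.11, 11.74, 12.06 and 12.70 in KO. KO 2 lay within the WT range, and the difference of 0.76 (SE 0.31, adjusted p = 0.602) became 0.26.

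The inflammatory lists had medians between -0.08 and 0.03, and between -0.10 and 0.03 without KO 1 and KO 4. The list of reactive astrocyte and acute-phase genes had 10 of 17 members higher, with a median of 0.03, and 9 with a median of 0.02 without KO 1 and KO 4. Serpina3n, a protease inhibitor of reactive astrocytes, was at 8.60, 8.45, 8.84 and 9.20 in WT and at 10.18, 9.55, 8.89 and 9.93 in KO. KO 4, at the WT level for Lcn2, was among the higher arrays for Serpina3n, and the difference of 0.87 (SE 0.33, adjusted p = 0.589) became 0.45. Stat3 went from 0.53 to 0.13, and the metalloreductase gene Steap4 from -0.39 to -0.26. Cytokine genes had 6 of 17 higher (median -0.08), interferon response genes 13 of 21 (0.03) and microglial genes 6 of 16 (-0.07). With KO 1 and KO 4 left out they had 8 of 17 (median -0.01), 8 of 21 (-0.10) and 10 of 16 (0.03) higher. Sall1 was the only microglial member at an unadjusted p under 0.05; it differed by 1.11 over all arrays and by 0.01 without KO 1 and KO 4. Tspo, the mitochondrial protein imaged as a sign of glial activation, was at 8.02, 8.01, 8.31 and 8.03 in WT and at 8.11, 7.96, 7.74 and 8.24 in KO. The difference was -0.08 over all arrays and -0.24 without KO 1 and KO 4, and KO 3 was the lowest array.

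Clock genes had 4 of 21 members higher (median -0.12), and 8 of 21 without KO 1 and KO 4 (median -0.02). Tef, an output gene of the clock, was at 8.96, 9.17, 9.32 and 9.30 in WT and at 8.47, 8.73, 9.02 and 8.92 in KO. KO 3 lay above WT 1, and the difference of -0.40 (SE 0.14, adjusted p = 0.553) became -0.32. Immediate early genes had 7 of 20 higher (median -0.03), and 13 of 20 (median 0.06) without KO 1 and KO 4. Npas4, which neuronal activity induces, was at 10.20, 9.60, 9.82 and 9.25 in WT and at 10.02, 10.55, 10.63 and 10.06 in KO. WT 1 lay above KO 1 and KO 4, and the difference of 0.60 (SE 0.23, adjusted p = 0.589) became 0.87. Jund differed by -0.28 and -0.22. Glucocorticoid-responsive genes had 8 of 18 higher (median -0.13), and 10 of 18 (median 0.10) without KO 1 and KO 4, with Klf15 at -0.29 and -0.32. Cholesterol synthesis genes had 8 of 18 higher (median -0.02), and 12 of 18 (median 0.06) without KO 1 and KO 4. The mevalonate pathway gene Mvd was at 10.10, 9.94, 10.41 and 10.12 in WT and at 9.76, 9.98, 9.71 and 9.89 in KO, with KO 2 above WT 2, and differed by -0.31 and -0.29. Metallothionein and zinc genes had 2 of 11 higher (median -0.09), and hexosamine genes 10 of 12 (0.07), against 4 of 11 (-0.05) and 7 of 12 (0.07) without KO 1 and KO 4.

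Markers of cells and tissues next to the neocortex differed between arrays as well. All 16 measured striatal genes were higher without KO 1 and KO 4 (median 0.28), against 7 of 16 with them (median -0.06). Without those 2 arrays 9242 of all 19572 genes were higher. The striatal list mean was 9.82, 10.59, 10.72 and 10.43 in WT and 9.69, 10.91, 10.56 and 10.34 in KO, so WT 1 and KO 1 were the low arrays. Myelin genes had 16 of 19 higher without KO 1 and KO 4 (median 0.21) and 4 of 19 with them (median -0.11). Their mean was 11.63, 11.82, 10.79 and 12.06 in WT and 11.18, 11.73, 11.84 and 11.20 in KO, lowest in WT 3. Choroid plexus genes had 2 of 12 higher (median -0.19), thalamic, midbrain and hypothalamic genes 4 of 16 (median -0.20), meningeal genes 9 of 15 (median 0.13) and endothelial genes 13 of 18 (median 0.04). Leaving out KO 1 and KO 4 made these 4 of 12 (median -0.18), 5 of 16 (-0.15), 8 of 15 (0.01) and 5 of 18 (-0.04), so the endothelial median changed sign. Hippocampal genes had 7 of 18 higher (median -0.11), general neuronal genes 7 of 18 (-0.02), oligodendrocyte precursor genes 4 of 7 (0.02), blood genes 2 of 7 (-0.07), neurosteroid genes 4 of 10 (-0.05) and nitric oxide and cGMP genes 5 of 13 (-0.05). In the same order the counts without KO 1 and KO 4 were 8 of 18 (median -0.05), 10 of 18 (0.07), 3 of 7 (-0.01), 4 of 7 (0.06), 5 of 10 (-0.0027) and 6 of 13 (-0.02). The part of these tissues in the other differences was not tested.

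**Figure D5:**
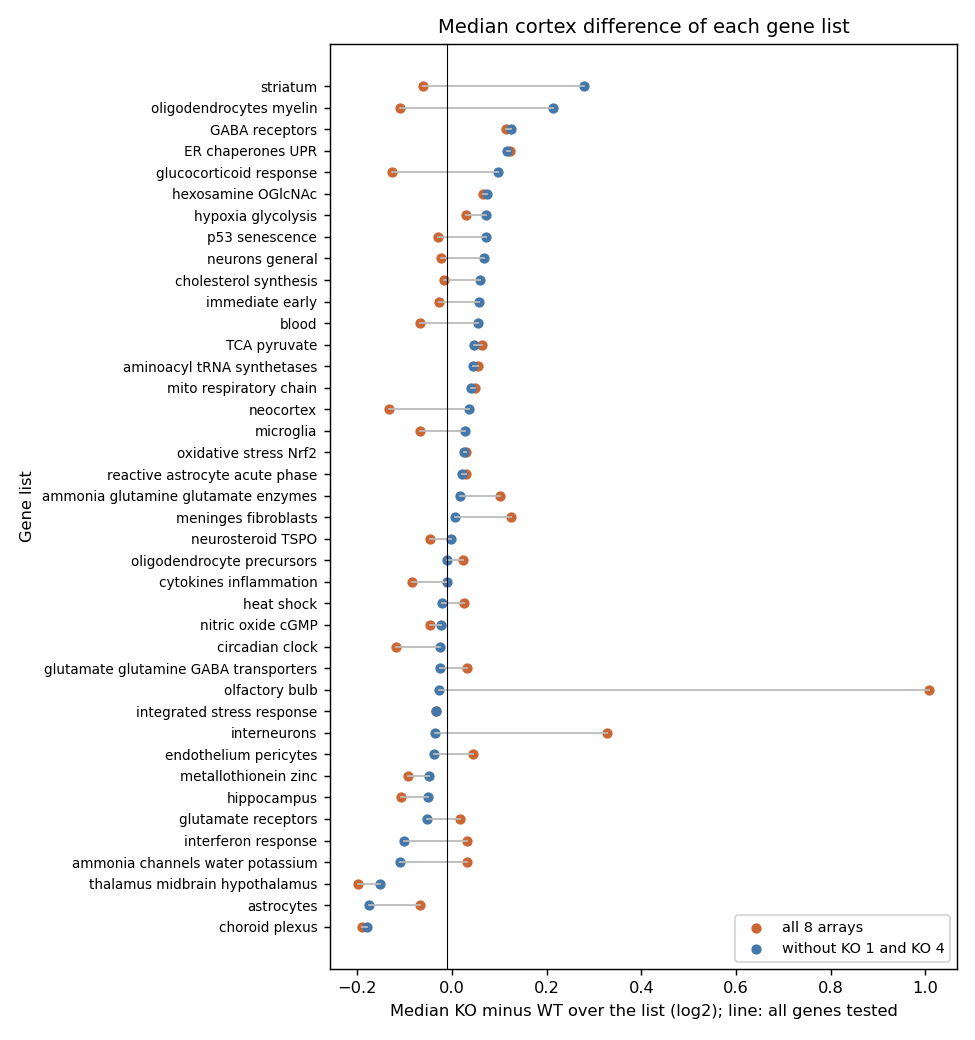
Median of KO minus WT (log2, horizontal axis) over the measured genes of each of 40 lists (vertical axis), with all 8 cortex arrays (orange) and without KO 1 and KO 4 (blue); the vertical line is the median of all genes. The bulb list goes from 1.01 to -0.03 and the interneuron list from 0.33 to -0.04, while the chaperone list stays at 0.12.

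The cortex differences were tested against those of the other regions with an interaction term. limma called 0 genes against the hippocampus, with 813 at an unadjusted p under 0.05 (4.15%), and 0 against the cerebellum, with 1229 (6.28%). Kcnc4 differed by -0.65 in cortex, -0.08 in hippocampus and 0.22 in cerebellum, and the interaction with the cerebellum had an adjusted p of 0.76. Cerebellum KO 3 stood apart, with a myelin list mean of 13.13 against 11.16 to 11.67 in the other cerebellum arrays. It also held the highest cerebellar values of Kcnc4 (10.97) and Dync1h1 (14.39). Its part in the comparison with the cerebellum was not tested. Egln3 differed by 1.10 in cortex, -0.29 in hippocampus and 0.45 in cerebellum. The interaction tests and the cortex values beside them took in KO 1 and KO 4. Without those arrays the cortex difference was -0.37 for Kcnc4 and 0.36 for Egln3. The cortex differences of Tax1bp1, Sh3bp1, Dync1h1 and Slc25a28 changed less, as given above. Tax1bp1 differed by 0.48, -0.02 and 0.10, Sh3bp1 by -0.48, 0.10 and -0.23, Dync1h1 by -0.39, -0.08 and 0.11, and Slc25a28 by -0.43, 0.03 and 0.00. These genes were chosen for their small p in the cortex, which favours a larger value there. Lcn2 alone among the genes named here differed by more than 3 in each of the regions.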

How the data were processed

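Total RNA of 24 brain samples was measured on arrays. The labels name biotin and also describe Cy3-labelled cRNA, so the labelling chemistry is not settled. The deposited values are log2 intensities per transcript cluster that the authors made with RMA (background correction, normalization between arrays and summary of probes), per the submitters' processing notes. The sources used here give neither its version nor a genome build. The log2 scale was inferred from the range: values ran from 3.89 to 18.73 in cortex, above the 16 of a scanner in 174 annotated rows. RMA shrinks differences of dim probes. Values were used as deposited.

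Groups came from the titles. Of 22206 rows, 19572 had a gene name on the platform and were tested; 2634 without one were left out. limma 3.58.1 in R 4.3.3 (lmFit, eBayes) fitted 6 group means over 24 arrays (18 residual degrees of freedom, prior 6.9), with Benjamini-Hochberg adjustment over all rows and a threshold of 0.05. Animal numbers were taken to mark the same animal in the 3 regions, and interaction terms kept the animal as a random block (statmod 1.5.0, consensus correlation 0.00646). WT and KO animals of the same number are different animals: their deviations correlated at -0.11 to 0.09, so no pairing was used. Gene lists have no test. Their counts and medians are to be read against those of all genes, which are given with the counts of genes called.

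The comparison and the 40 gene lists were chosen with earlier results of these data known, and some genes are in several lists. Genes were named by rule: the 10 of smallest p each way, the 6 of smallest p each way without KO 1 and KO 4, the 6 of largest difference each way, the leading members of each list, the leading genes called without KO 2 or KO 3, and a few fixed genes, passing over unnamed transcripts and odorant receptors. Genes that name the tissue carried by an array, such as Tcf7l2, were chosen after their values were seen. P-values of the main fit measure the spread between arrays within a group, pooled over the 6 groups of the 3 regions. That fit took arrays of the same animal number in different regions as independent. Alternatives left out each cortex array, changed the normalization, filter, prior, weights and arrays in the fit, or added a replicate block or the bulb list mean as a covariate.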

Additional observations from a re-analysis of the deposited data

Results flagged for a closer look

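In 12 of 184 groups of 4 cortex values examined, 1 array lay far from the other 3 by Dixon's criterion, where chance gives about 5% of groups. Lcn2 was 7.44 in KO 4, against 11.81 to 12.29 in the other KO arrays. Gli3 was 8.15 in KO 1, against 8.97 to 9.13. Prl was 13.20 in WT 3, against 7.37 to 7.52, and Ttr was 15.28 in WT 1, against 11.43 to 11.71. In WT 3, Lypd1 was high at 14.62, Tspo was high at 8.31 and Slc1a3 was low at 12.11. Lyar was 9.47 in WT 1, against 9.33 to 9.34 in the other WT arrays. Of the list means, KO 1 was high for meningeal genes (9.96) and Nrf2 genes (11.68), and WT 4 for astrocyte genes (13.00) and cytokine genes (7.86).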

How the results depend on the processing

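The count of genes called in the cortex was 0 for all arrays and in each alternative fitted over the 3 regions or on cortex arrays alone, except without KO 2, without KO 3, and on the 6 cortex arrays left without KO 1 and KO 4. The range over the 8 arrays left out in turn was 0 to 55, with 55 without KO 2 and 34 without KO 3. At an unadjusted p under 0.05 that range was 934 (without KO 4) to 1983 (without KO 2), around 1459 for all arrays. The count was 693 without KO 1 and KO 4, 828 with the bulb list mean as a covariate, and 697 without WT 1, WT 3 and WT 4, a setting chosen after seeing the data that leaves 1 WT array, assumed to vary like the other groups. Without KO 1 and KO 4 and with cortex arrays alone, also added later, 1 gene was called, Lcn2. This setting leaves out KO 4, the KO array at the WT level for Lcn2. A replicate block on the animal number gave 1463 and 0 called; same-numbered animals did not deviate together. Cortex arrays alone gave 1205, quantile normalization 1512, and removal of dim genes 1177 of 14679. Of the named genes of smallest p or largest difference, these changed sign: St8sia3 (-0.025 to 0.345 over arrays left out in turn), Adcy8 (-0.44 to 0.19), Glra1 (-1.30 to 0.11, and 0.57 without WT 1, WT 3 and WT 4) and Gh (0.34 without those WT arrays). For their values, 740 kept their direction and side of the threshold, 24 passed it and 6 reversed. Of 720 list medians, 39 moved by more than the replicate spread.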
